A study of Mus musculus with 22 samples.

Results

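The enzymes and regulators of cholesterol and fatty acid synthesis were followed in the livers of mice given diclofenac, a nonsteroidal anti-inflammatory drug, or saline. A list of 34 genes was matched to the arrays through probe sets whose annotation names a single gene symbol, and 33 of them were found among the 18194 genes that have such a probe set. The 33 genes form a sterol branch of 18 (Hmgcs1, Mvk, Pmvk, Mvd, Idi1, Fdps, Fdft1, Sqle, Lss, Cyp51, Nsdhl, Hsd17b7, Ebp, Sc5d, Dhcr7, Insig1, Srebf2 and Stard4) and a fatty acid branch of 15 (Srebf1, Mlxipl, Thrsp, Pklr, Acly, Me1, Acaca, Acacb, Fasn, Elovl6, Elovl5, Scd1, Fads1, Fads2 and Gpam). Acat2, a cytosolic thiolase listed with the sterol branch, had no such probe set. The 33 genes are covered by 76 probe sets, and each gene is given by the one with the highest mean log2 signal over the 22 arrays.

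The mice were C57BL6 males, and every group was of the same strain and sex. They were 8 weeks old when purchased, and their age when the livers were taken is not given. Diclofenac groups received the sodium salt at 30 mg/kg each day by intraperitoneal injection and control groups received saline, and livers were taken on day 1, day 3 or day 14. Day 1 and day 3 have 3 livers in each group and day 14 has 5, with 1 Affymetrix whole-genome mouse array for each liver. Food was freely available, and the feeding state and hour at which the livers were taken are not given in the sources used here. RNA came from whole liver, so that fewer cells of a type and less RNA per cell cannot be told apart. Signals are linear MAS5 values in arbitrary units, all differences are on the log2 scale, and a gene was called when its Benjamini-Hochberg adjusted p over all genes tested in limma was under 0.05.

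Hepatocytes make cholesterol from acetyl-CoA through mevalonate, isoprenoid and squalene steps, and the genes of these steps are driven by the membrane-bound transcription factor SREBP2, which is cleaved and released when sterols in the endoplasmic reticulum run low. SREBP1c, made from Srebf1 and raised by insulin and by the oxysterol receptor LXR, drives the fatty acid genes together with the glucose-sensing factor ChREBP, made from Mlxipl. Sterol genes are known to be quiet when cholesterol is plentiful, and fatty acid genes to be high after feeding and low in fasting.

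The summed signal of 7 hepatocyte markers lay between 337436 and 714821 in the 22 arrays. Each day had its own arrays, and day and array handling cannot be told apart. The mean log2 signal of the 18S control probe sets was 11.68 to 12.41 in the livers of day 1, 14.47 to 14.83 at day 3 and 15.12 to 16.15 at day 14. At day 14, replicate 3 of the diclofenac group stood apart from the other livers, with a correlation of 0.885 to 0.892 to the 4 others of its group, which correlated with each other at 0.920 to 0.932. The summed signal of 6 neutrophil markers was 23860 in that liver, against 508 to 2324 in the 4 others and 258 to 406 in saline livers. A second liver, replicate 2 of the diclofenac group of day 1, had a neutrophil sum of 21247 against 1070 and 1234 in the other 2 of its group.

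The mean level of each branch in a liver, with each gene centred on its mean over the 22 arrays, gave the broad picture. Sterol genes averaged 0.31 to 1.22 in the saline livers of day 1 and 0.05 to 0.76 in those of day 3, and -1.19 to -1.03 in those of day 14. In diclofenac livers the sterol mean was 0.29 to 1.25 at day 1, 0.58 to 1.27 at day 3 and -1.26 to -0.95 in 4 livers of day 14, with 0.95 in replicate 3. The saline livers of day 14 were thus tightly grouped and below every liver of days 1 and 3, and replicate 3 alone of the day 14 livers lay among the early ones.

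Fatty acid genes moved over a smaller range. Their mean was 0.12 to 0.34 in saline livers of day 1, 0.33 to 0.47 at day 3 and -0.23 to -0.14 at day 14. Diclofenac livers had -0.26, -0.23 and 0.45 at day 1, 0.29 to 0.43 at day 3 and -0.44 to -0.21 in 4 livers of day 14. Replicate 3 of day 14 was the lowest of all 22 livers, at -0.78, while its sterol mean was the highest of day 14. Replicate 2 of the diclofenac group of day 1 also had the highest sterol mean of its day, 1.25, and the lowest fatty acid mean, -0.26.

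**Figure D1:**
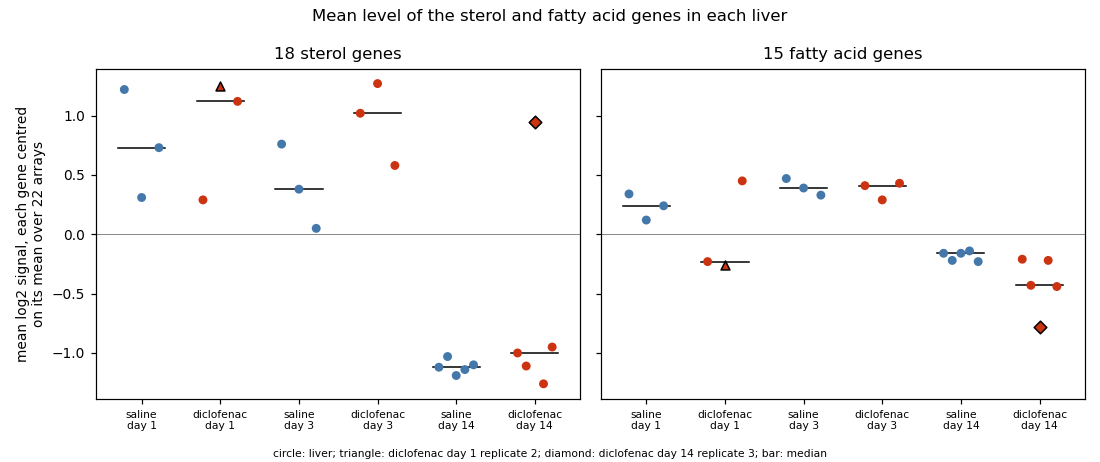
Mean log2 signal of the 18 sterol genes (left) and 15 fatty acid genes (right) in each of the 22 livers, after centring each gene on its mean over all arrays. Points are livers, bars are group medians, the triangle is replicate 2 of the diclofenac group of day 1 and the diamond is replicate 3 of the diclofenac group of day 14, whose sterol mean of 0.95 lies among the livers of days 1 and 3 and whose fatty acid mean of -0.78 is below all others.

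At day 14 the lowest log2 differences of the 33 genes were those of Fads2, Me1, Elovl5 and Fads1, and none of them was called with all livers. Fads2, the delta-6 desaturase that opens the conversion of linoleic and linolenic acid, had signals of 6135, 6823, 8541, 6291 and 8724 in saline livers and 3804, 3375, 1319, 3757 and 5221 in diclofenac livers. Elovl5, the elongase that acts between the desaturase steps, read 37077, 33191, 34252, 37487 and 37767 in saline livers and 24792, 26587, 10827, 21598 and 27038 in diclofenac livers. Me1, the cytosolic malic enzyme that supplies NADPH for fatty acid synthesis, read 5853, 6232, 4855, 6503 and 5785 with saline and 4024, 3262, 1739.9, 3558 and 4098 with diclofenac. For each of the 3 genes every diclofenac liver was below every saline liver, and replicate 3 was the lowest of the diclofenac livers.

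With all 10 livers of day 14 the log2 differences were -1.18 ± 0.30 (SE) for Fads2, -0.86 ± 0.21 for Me1 and -0.77 ± 0.22 for Elovl5, and their limma adjusted p-values were 0.22, 0.182 and 0.254. None of the 33 genes was called by limma, and 0% of the 11884 genes tested were. An unadjusted p under 0.05 was found for 4 of the 33 and for 1287 of the 11884. By the methods' t-test, at an unadjusted p under 0.05 and above 1.5-fold, Fads2, Me1 and Elovl5 alone of the 33 passed. Of all 11884 genes tested 284 passed, and none of the whole table passed that test after Benjamini-Hochberg.

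Without replicate 3 the 3 genes were called. Fads2 fell by 0.86 ± 0.14 (SE, limma adjusted p = 0.0211), Me1 by 0.65 ± 0.10 (adjusted p = 0.0192) and Elovl5 by 0.53 ± 0.09 (adjusted p = 0.0211) on the log2 scale, with 5 saline and 4 diclofenac livers. They were 3 of 33 genes called, against 1.05% of the 11742 genes tested. Their differences were smaller without that liver, and so were their standard errors. Counting groups that do not overlap, they were 3 of 33 with all livers, against 3.78% of all genes tested, and 3 of 33 without replicate 3, against 5.71%. With all 10 livers kept, the 3 genes were also called when the 22 arrays shared 1 model (limma adjusted p of 0.0215 to 0.0487). They were also called with array weights, by which arrays far from their group count less (0.0207 to 0.0379). The differences were then -0.91 for Fads2, -0.70 for Me1 and -0.55 for Elovl5, close to those without replicate 3. The weighting is therefore not separate from leaving that liver out. With median centring of the arrays and without replicate 3, Me1 alone was called (adjusted p = 0.0437).

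The probe sets of each of these genes pointed the same way. Without replicate 3, both probe sets of Elovl5 (-0.53 and -0.62) and both of Me1 (-0.65 and -0.70) were called when every probe set was tested on its own, and of the 3 probe sets of Fads2 (-0.86, -0.96 and -1.02) the first and last were called. Over the 20 members with several probe sets tested, 17 had all of them on one side of 0. With all livers of day 14 this held for 16 of 21, at day 1 for 16 of 22 and at day 3 for 14 of 22. For saline livers of day 14 against those of days 1 and 3 it held for 15 of 22.

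Fads1, the delta-5 desaturase that follows Elovl5 in the same route, read 5863, 7105, 7836, 7032 and 10390.1 in saline livers and 6297, 4394, 4528, 5013 and 5682 in diclofenac livers. The groups overlapped, and its log2 difference was -0.55 ± 0.16 (SE, limma adjusted p = 0.253), or -0.50 ± 0.15 without replicate 3 (adjusted p = 0.157). Scd1, the stearoyl-CoA desaturase that makes oleate and palmitoleate, read 24314, 43901, 52281, 33383 and 50815 with saline and 63696, 30566, 34936, 28472 and 29061 with diclofenac, with a difference of -0.15 ± 0.26. Its livers ranged widely in both groups and overlapped, and replicate 1 of the diclofenac group was the highest. Fasn, the fatty acid synthase, differed by 0.10 ± 0.21, Acaca, the acetyl-CoA carboxylase that makes malonyl-CoA, by 0.18 ± 0.13, Acly, the citrate lyase that makes cytosolic acetyl-CoA, by 0.10 ± 0.16, and Elovl6, which lengthens palmitate, by -0.18 ± 0.11. These 4 genes were not called with or without replicate 3.

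The upstream regulators and glycolytic genes of the fatty acid branch were also not called at day 14. Srebf1 differed by 0.19 ± 0.23, Mlxipl by -0.33 ± 0.34 and Thrsp, a lipogenic cofactor that answers to thyroid hormone and carbohydrate, by 0.42 ± 0.35. Pklr, the liver pyruvate kinase and a classic ChREBP target, read 429, 366, 269, 383 and 178 in saline livers and 386, 519, 167, 447 and 349 in diclofenac livers. Its groups overlapped, replicate 3 was the lowest of the 10, and the difference moved from 0.17 ± 0.32 to 0.44 ± 0.23 when that liver was left out. Gpam, the first acyltransferase of triglyceride synthesis, moved from -0.31 ± 0.18 to -0.14 ± 0.11, and Acacb, the carboxylase whose malonyl-CoA restrains fatty acid oxidation, from -0.35 ± 0.29 to -0.09 ± 0.19.

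Other measures also moved with the groups of day 14, some with overlap. The summed signal of 4 adipocyte markers was 525 to 1202 in saline livers and 101 to 284 in diclofenac livers. Most of it was Cidec, a lipid droplet protein that fatty hepatocytes also make, at 293 to 1024 in saline livers and 70.4 to 174.5 in diclofenac livers, while the defining markers Adipoq and Lep were below the array median in every array of day 14. The 6 neutrophil markers summed to 258 to 406 with saline and to 508 or more with diclofenac, with Camp below the array median in every saline array. Of these only S100a8 and S100a9 separated the groups, while Ngp, Camp, Ltf and Csf3r overlapped. The 7 macrophage and Kupffer cell markers summed to 4337 to 11358 with saline and 7379 to 11107 in the 4 diclofenac livers other than replicate 3. The 6 stellate cell markers summed to 8183 to 10873 with saline and 4369 to 8494 in the same 4 livers. Without replicate 3 none was called and 5 of 6 were lower at an unadjusted p under 0.05 in limma, with a median of -0.56. Groups did not overlap for 2 of the 6, against 5.71% of all genes tested. The log2 ratio of 3′ to 5′ probe sets of actin and Gapdh, a sign of RNA quality, was 0.55 to 0.71 with saline and 0.69 to 0.81 with diclofenac. Their part in the lower Fads2, Elovl5 and Me1 signals was not tested.

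**Figure D2:**
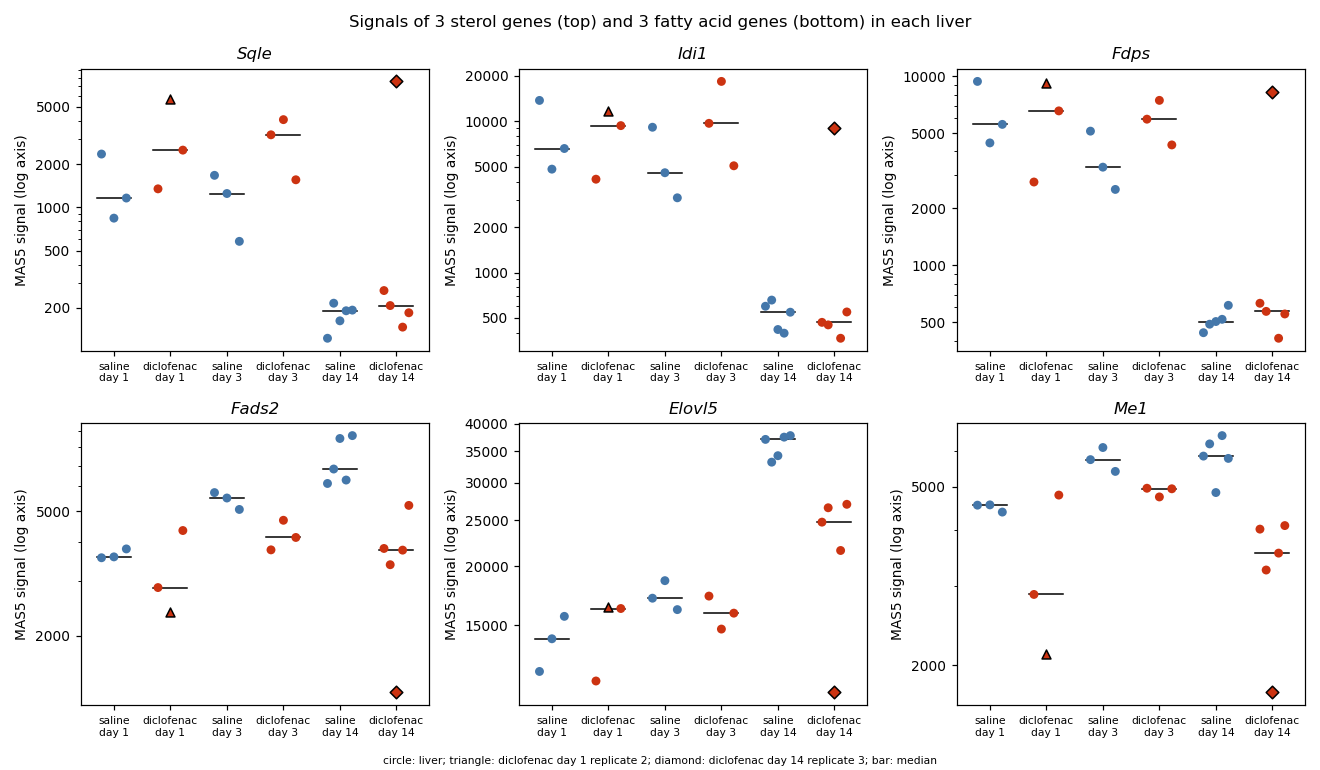
MAS5 signals of the sterol genes Sqle, Idi1 and Fdps (top) and the fatty acid genes Fads2, Elovl5 and Me1 (bottom) in each liver, on log axes that do not start at 0. Points are livers and bars are group medians. In replicate 3 of the diclofenac group of day 14 (diamond) Sqle is at 7526 against 123 to 264 in the other livers of day 14, and for the 3 fatty acid genes every diclofenac liver of day 14 is below every saline liver of that day.

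Sterol genes at day 14 turned on 1 liver. Sqle, the squalene epoxidase and a target of SREBP2, had signals of 123, 216, 162, 191 and 193 in saline livers and 264, 208, 7526, 147 and 185 in diclofenac livers. Idi1, the isopentenyl diphosphate isomerase, read 598, 657, 419, 397 and 546 with saline and 468, 450.0, 9007, 367 and 548 with diclofenac. Fdps, which joins isoprenoid units to farnesyl diphosphate, read 440.2, 488, 504, 518 and 614 with saline and 630.0, 571, 8296, 411 and 553 with diclofenac. In all 3 genes replicate 3 was far above the other 9 livers, and the other 4 diclofenac livers overlapped with the saline livers. Sqle was 28.52-fold above the next diclofenac liver, Idi1 16.44-fold and Fdps 13.17-fold.

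The rest of the branch had the same shape. Of the 18 sterol genes, 17 were highest in replicate 3 among the 10 livers of day 14, and 11 had a signal there within the range of the 12 livers of days 1 and 3. Ebp, a sterol isomerase, was the exception, at 7793 against 7217 to 8817 in the other diclofenac livers. Hmgcs1, the HMG-CoA synthase at the head of the route, read 21139 in replicate 3 against 4427 to 7273 in the 4 others and 4633 to 8341 in saline livers. Cyp51, the lanosterol demethylase, read 524, 603, 540.1, 467 and 476 with saline and 605, 469, 5775, 344 and 673 with diclofenac. Replicate 3 was again the high liver. Insig1, the anchor that holds the SREBP complex in the endoplasmic reticulum and is itself a target of SREBP, read 1039.7, 1464, 1539, 1153 and 1653 with saline and 1377, 1662, 6139.9, 1519 and 2077 with diclofenac. Nsdhl, which removes methyl groups of the sterol ring with Cyp51, read 791, 838, 571, 677 and 534 with saline and 1082, 765, 3298, 653 and 768 with diclofenac. The other 4 diclofenac livers overlapped with saline in these genes. Srebf2 itself read 806 against 245 to 338 in the 4 others, and Stard4, a sterol carrier, 1652 against 489.5 to 615.

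The fatty acid genes of replicate 3 went the other way in part. Of 15, 7 were the lowest of the 10 livers of day 14 and 3 the highest. Mlxipl read 1093 against 3013 to 4209 in the other diclofenac livers, Gpam 4256 against 6527 to 8890.4 and Acacb 251 against 555 to 729. Acly, in contrast, was high at 4532 against 2559 to 2971, and Srebf1 read 1329.6 against 642 to 1052.

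The sterol differences of day 14 depended on that liver. With it, the median log2 difference of the sterol genes was 0.39 and 16 of 18 were above 0, beside a median of -0.01 over all genes tested. Without it, the median was 0.07, 10 of 18 were above 0 and the range was -0.37 (Hsd17b7) to 0.28 (Insig1). Sqle went from 1.23 ± 0.90 to 0.18 ± 0.21, Fdps from 0.86 ± 0.67 to 0.07 ± 0.14, Cyp51 from 0.66 ± 0.61 to -0.04 ± 0.18 and Idi1 from 0.68 ± 0.74 to -0.18 ± 0.17. No sterol gene was called either way, with limma adjusted p-values of 0.522 or more with all livers and 0.325 or more without replicate 3. The median of the fatty acid genes was -0.18 with that liver and -0.09 without it. The macrophage and Kupffer cell markers summed to 32296 in replicate 3, 6 of the 7 were higher there than in any other liver of day 14, and so were all 6 neutrophil markers. Its cholangiocyte markers summed to 2358 against 321 to 481 in the other diclofenac livers, its stellate cell markers to 13012 against 4369 to 8494 and its endothelial markers to 9161 against 5388 to 5637, with 3 of 4, 4 of 6 and 4 of 6 of them highest there among the livers of day 14. Their part in its sterol signals was not tested.

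**Figure D3:**
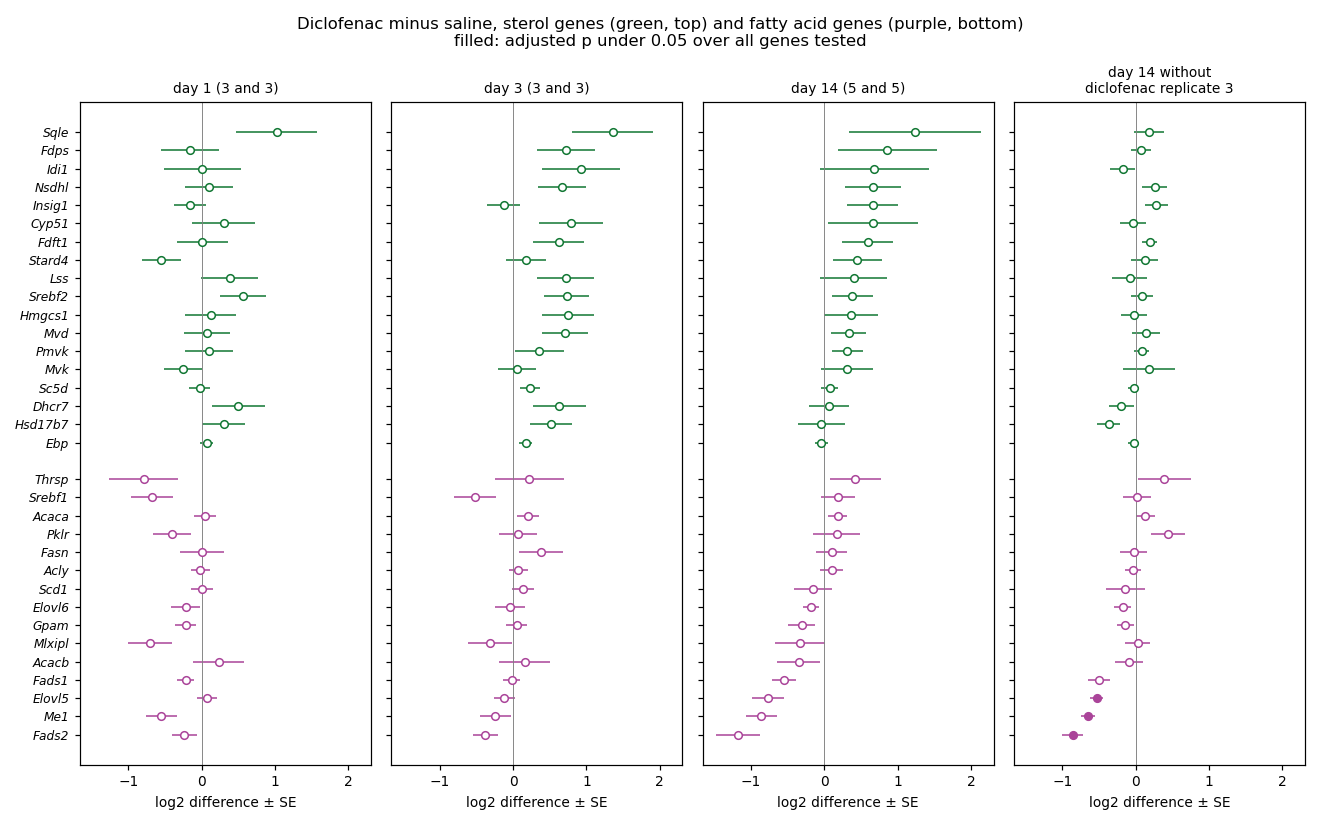
Log2 difference of diclofenac from saline for the 18 sterol genes (green) and 15 fatty acid genes (purple), with standard errors from limma, at days 1, 3 and 14 and at day 14 without replicate 3 of the diclofenac group. Filled points were called at an adjusted p under 0.05 over all genes tested, which holds for Elovl5 (-0.53), Me1 (-0.65) and Fads2 (-0.86) in the last panel and for no gene in the others.

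Upstream sequences are shown for Idi1 and Fads2, which had the largest difference of their branch at day 14 among genes with a promoter given. Sqle and Fdps differed more than Idi1 but had none. The sequence of Hmgcs1 is shown as that of another sterol gene, the only one with a sterol response element core among those given. Each sequence is the 250 bases before the RefSeq start site on build GRCm38.p6, read 5′ to 3′ along the gene. That of Idi1 is at chr13:8885356-8885605 and that of Hmgcs1 at chr13:119690101-119690350, both on the plus strand. That of Fads2 is at chr19:10101504-10101753 on the minus strand. Capitals mark matches on either strand to the sterol response element core (TCACNCCAC), the E-box (CACGTG), the CCAAT box (CCAAT) and the GC box (GGGCGG).
Idi1: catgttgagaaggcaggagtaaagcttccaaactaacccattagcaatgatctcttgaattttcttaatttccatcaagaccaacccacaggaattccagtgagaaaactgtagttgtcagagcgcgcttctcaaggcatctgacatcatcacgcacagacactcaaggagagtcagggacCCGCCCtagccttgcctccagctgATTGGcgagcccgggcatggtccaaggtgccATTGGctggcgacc
Hmgcs1: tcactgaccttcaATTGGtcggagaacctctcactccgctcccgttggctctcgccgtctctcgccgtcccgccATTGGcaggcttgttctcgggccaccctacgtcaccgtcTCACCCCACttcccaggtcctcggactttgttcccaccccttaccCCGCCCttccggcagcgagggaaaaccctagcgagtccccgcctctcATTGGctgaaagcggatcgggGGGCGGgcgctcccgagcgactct
Fads2: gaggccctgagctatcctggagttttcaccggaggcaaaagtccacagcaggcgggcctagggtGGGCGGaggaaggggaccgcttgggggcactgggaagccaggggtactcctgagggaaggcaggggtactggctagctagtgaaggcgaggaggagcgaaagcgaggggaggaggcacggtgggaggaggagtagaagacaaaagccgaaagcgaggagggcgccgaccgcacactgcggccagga

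Idi1 holds 2 CCAAT boxes, starting at bases 206 and 237 from the 5′ end on the reverse strand, and a GC box at base 182. Hmgcs1 holds the sterol response element core at base 114, 3 CCAAT boxes and 2 GC boxes, and Fads2 a GC box alone, at base 65. Promoters were given for 27 of the 33 genes, and Sqle, Fdps, Fdft1, Stard4, Scd1 and Fads1 were not among them. A CCAAT box was present in 14 of 14 sterol genes and 9 of 13 fatty acid genes, and in 37.5% of the 27025 genes with a promoter. A GC box was present in 13 sterol and 6 fatty acid genes (35.4% of all), the E-box in 4 and 2 (6.86%) and the sterol response element core in Hmgcs1 and Mlxipl (1.22%). Genes with several start sites were counted once, over all their windows, and a match describes the letters of this window only.

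At day 3 most sterol genes were higher with diclofenac but none was called. Sqle read 1672, 1249 and 580.4 in saline livers and 3199.5, 4079 and 1556 in diclofenac livers, a log2 difference of 1.36 ± 0.55 (SE, limma adjusted p = 0.38). Idi1 read 9151, 4575 and 3122 with saline and 9712, 18401 and 5086 with diclofenac, a difference of 0.93 ± 0.53. Cyp51 read 2988, 2098 and 1428 with saline and 3644, 5034 and 2514 with diclofenac, a difference of 0.79 ± 0.43. In all 3 genes the lowest diclofenac liver was replicate 3 and it overlapped with the saline group. Hmgcs1 read 15045, 13910.0 and 7342 with saline and 21002, 26112 and 13439 with diclofenac, a difference of 0.75 ± 0.35, also with overlap.

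Groups of day 3 without overlap were found for 5 of the 18 sterol genes, all higher with diclofenac, against 20.0% of all genes tested in either direction. Lss, the lanosterol synthase, read 953, 729 and 599 against 1204, 1496 and 1037, and Dhcr7, the last reductase of the route, 1894, 1594 and 2133 against 3321, 2787 and 2588. Mvd, the mevalonate diphosphate decarboxylase, read 216, 178 and 189.7 against 414, 342 and 225, and Sc5d and Ebp were the other 2. A second probe set of Lss gave -0.69 and one of Sc5d -0.28, so that the direction of both rests on the probe set. In all, 17 of the 18 sterol genes were above 0, Insig1 at -0.13 being the other, with a median of 0.65 beside 0.01 over all genes. The median was 0.44 to 0.84 when 1 array was left out. In the same settings Idi1 ranged from 0.47 (without diclofenac replicate 2) to 1.40 (without diclofenac replicate 3) and Sqle from 0.92 (without saline replicate 3) to 1.76 (without diclofenac replicate 3).

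Fatty acid genes at day 3 had a median log2 difference of 0.05, with 8 of 15 above 0. Fads2 read 5737, 5513 and 5068 in saline livers and 3765, 4679.8 and 4124 in diclofenac livers, a difference of -0.38 ± 0.17 (SE, limma adjusted p = 0.44). Srebf1 read 3302, 2184 and 2589 with saline and 1719.7, 2148 and 1704 with diclofenac, a difference of -0.52 ± 0.29, and Mlxipl 5836, 7571 and 6176 with saline and 5694, 5070.2 and 4931 with diclofenac, a difference of -0.31 ± 0.30. In these 3 genes and in Me1 every diclofenac liver was below every saline liver, while groups did not overlap for 20.0% of all genes tested. Fasn read 1223, 1122 and 842 with saline and 1559, 1680.3 and 962 with diclofenac, with overlap and a difference of 0.38 ± 0.30. Scd1 read 43504, 47521 and 45921 with saline and 52682, 42907 and 56550.4 with diclofenac, a difference of 0.14 ± 0.15, and Pklr 1634, 969 and 1310.0 with saline and 1294, 1209.9 and 1521 with diclofenac, a difference of 0.07 ± 0.26. Both overlapped between the groups.

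Limma called none of the 33 genes at day 3, and 0.202% of the 12884 genes tested were called. An unadjusted p under 0.05 was found for 4 of the 33 (Sqle, Srebf2, Mvd and Fads2) and for 1397 of the 12884. By the methods' t-test Lss and Dhcr7 alone of the 33 passed at an unadjusted p under 0.05 and above 1.5-fold. Of all 12884 genes tested 321 passed, and none passed after Benjamini-Hochberg. Groups did not overlap for 10 of the 33 genes, and for 20.0% of all genes tested. The median of the fatty acid genes was -0.03 with quantile normalization and -0.10 with the mean of all probe sets, so that its sign rests on the processing.

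At day 1, after a single day of dosing, the livers of each group ranged widely. Sqle read 2350.5, 842 and 1162 in saline livers and 1346, 5692 and 2503 in diclofenac livers, a log2 difference of 1.02 ± 0.55 (SE, limma adjusted p = 0.449). Srebf2 read 309.6, 224 and 309.7 with saline and 300.4, 569 and 400.0 with diclofenac, a difference of 0.56 ± 0.31, and Dhcr7 3989, 1072 and 1554 with saline and 1888, 3259.6 and 3052 with diclofenac, a difference of 0.50 ± 0.36. Stard4 was on the other side, at 3408, 2747 and 3606 with saline and 2094, 1396 and 3693 with diclofenac, a difference of -0.55 ± 0.27. The groups overlapped for all 4 genes, and replicate 2 of the diclofenac group was the highest liver of the day for Sqle and Srebf2 and the lowest for Stard4. When 1 array was left out, Sqle ranged from 0.48 (without diclofenac replicate 2) to 1.52 (without diclofenac replicate 1), Dhcr7 from 0.09 (without saline replicate 2) to 1.04 (without saline replicate 1) and Stard4 from -0.92 (without diclofenac replicate 3) to -0.22 (without diclofenac replicate 2). The direction of Srebf2 rests on its probe set, since its other probe set gave -0.44 at day 1 and -0.10 at day 3, and the mean of all its probe sets gave 0.06 at day 1.

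Fatty acid genes of day 1 had a median difference of -0.22, and 10 of 15 were below 0. Thrsp read 6143, 4695 and 5783 in saline livers and 1351, 2879 and 8265 in diclofenac livers, a difference of -0.79 ± 0.47. Mlxipl read 5884, 6386 and 5372 with saline and 5541, 1824 and 4695 with diclofenac, a difference of -0.70 ± 0.30, and Srebf1 4714, 3689.7 and 4589 with saline and 3046, 1482 and 4283 with diclofenac, a difference of -0.68 ± 0.29. Replicate 2 was the low liver for Mlxipl and Srebf1, and replicate 1 for Thrsp. Thrsp was at -0.17 without diclofenac replicate 1 and at -1.48 without diclofenac replicate 3, while Mlxipl was at -0.20 and Srebf1 at -0.25 without diclofenac replicate 2, and Srebf1 at -1.02 without diclofenac replicate 3. Me1 read 4550.3, 4557 and 4392 with saline and 2878, 2125 and 4792 with diclofenac, a difference of -0.55 ± 0.21 (limma adjusted p = 0.332). Replicate 3 of the diclofenac group lay above the saline livers, and without it Me1 fell by 0.86 ± 0.12 (adjusted p = 0.0431), 1 of 3 genes then called in the whole table. Pklr read 1422, 1393 and 1259 with saline and 962, 688 and 1609 with diclofenac, a difference of -0.41 ± 0.26, and Scd1 34874, 43353 and 37477 with saline and 30017, 42011 and 45096 with diclofenac, a difference of 0.00 ± 0.15, both with overlap.

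Limma called none of the 33 genes at day 1, and 0% of the 12884 genes tested were called. An unadjusted p under 0.05 was found for 3 of the 33 (Me1, Mlxipl and Srebf1) and for 1674 of the 12884. None of the 33 passed the methods' t-test, at 1.5-fold or after Benjamini-Hochberg, while 188 of the 12884 passed at 1.5-fold. No gene of the 33 had groups without overlap, against 16.3% of all genes tested. The sterol median was 0.08, beside 0.00 over all genes, and leaving out single arrays gave -0.11 (saline replicate 2) to 0.44 (diclofenac replicate 1).

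Several marker sums of days 1 and 3 differed between the groups without overlap. Neutrophil markers summed to 628 to 886 in saline and 1070 to 21247 in diclofenac livers of day 1, and to 369 to 500 and 1628 to 2849 at day 3. At day 3 the sum was carried by S100a8 (97.0 to 139.8 with saline, 811.7 to 1678.5 with diclofenac) and S100a9 (42.9 to 95.8 and 623.8 to 818.1). Ngp, Camp, Ltf and Csf3r overlapped between the groups of day 3, and all of these but Csf3r overlapped at day 1. Macrophage and Kupffer cell markers summed to 15735 to 25401 with saline and 26878 to 38753 with diclofenac at day 1, and to 20399 to 22351 and 23500 to 34128 at day 3. At day 1 diclofenac livers had lower sums of stellate cell markers (7989 to 9603 against 11681 to 14343), of 3 pancreatic acinar markers (1067 to 3140 against 3236 to 3580) and of 3 erythroid markers (1129 to 1950 against 2000 to 2167). Of 6 stellate cell markers 5 were below 0. The 2 pancreatic acinar markers tested went opposite ways, at log2 differences of -0.98 and 0.60. So did the 2 erythroid markers tested, at -0.47 and 0.64. At day 3 diclofenac livers were higher in hepatocyte markers (377757 to 412449 against 337436 to 375954). Their part in the lipid gene differences of these days was not tested.

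Taking days 1 and 3 as one, the mean effect on Sqle was 1.19 ± 0.39 (SE, limma adjusted p = 0.16), on Srebf2 0.64 ± 0.22 (by the probe set whose partner went the other way), on Srebf1 -0.60 ± 0.21, on Mlxipl -0.50 ± 0.21 and on Me1 -0.39 ± 0.15. Sterol genes had a median of 0.39, with 15 of 18 above 0, and fatty acid genes a median of -0.12, with 10 of 15 below 0, beside 0.00 over all genes. None of the 33 was called by limma, and 0.675% of all genes tested were. An unadjusted p under 0.05 was found for 7 of the 33 and for 2215 of the 12884 genes tested. Leaving out replicate 3 of the diclofenac group of day 1 gave 326 called genes in the whole table in place of 87, and 3 of the 33, Me1 (-0.55 ± 0.08, adjusted p = 0.00865), Fads2 (-0.43 ± 0.08, adjusted p = 0.0236) and Srebf1 (-0.77 ± 0.17, adjusted p = 0.0427).

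The differences between the effects of the days were tested directly. Going from day 1 to day 3 the effect was larger for all 18 sterol genes, by 0.03 to 0.92 on the log2 scale. Idi1 was at 0.92 ± 0.76, Fdps at 0.88 ± 0.57 and Stard4 at 0.73 ± 0.38. The saline side moved more, with sterol means of 0.75 at day 1 and 0.40 at day 3. Diclofenac livers had 0.89 and 0.96. Saline replicate 3 of day 3 was the lowest liver of its day for 15 of the 18 genes. None of the differences in effect was called by limma (adjusted p of 0.881 or more), and 0% of all genes tested were called. None of the 33 genes had an unadjusted p under 0.05, against 694 of the 12884 genes tested. The effect of day 14 less the mean effect of days 1 and 3 was -0.75 ± 0.25 for Elovl5, -0.87 ± 0.33 for Fads2, -0.43 ± 0.18 for Fads1 and 0.79 ± 0.33 for Srebf1, the 4 genes with an unadjusted p under 0.05. Of the 13340 genes tested, 861 had an unadjusted p under 0.05. None of the 33 was called (adjusted p of 0.599 or more, limma), and 0.0225% of all genes tested were. Without replicate 3 of day 14 none was called either (adjusted p of 0.228 or more) and 5 had an unadjusted p under 0.05, so that a different answer of Fads2, Elovl5 or Me1 at day 14 than earlier was not shown.

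In saline livers alone, day 14 was far from days 1 and 3. Of the 18 sterol genes, 15 were called lower at day 14 and none higher, with a median log2 difference of -1.68 beside -0.06 over all genes tested. Fatty acid genes were split, with 6 of 15 called lower, 2 called higher and a median of -0.13. In all 23 of 33 genes were called, against 28.4% of the 13340 genes tested; 21 were lower, against 16.0% of all genes, and 2 higher, against 12.4%. Day 14, its arrays and any difference in the age of the mice cannot be told apart in this comparison. The 18S ranges of the 3 days given above did not overlap.

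**Figure D4:**
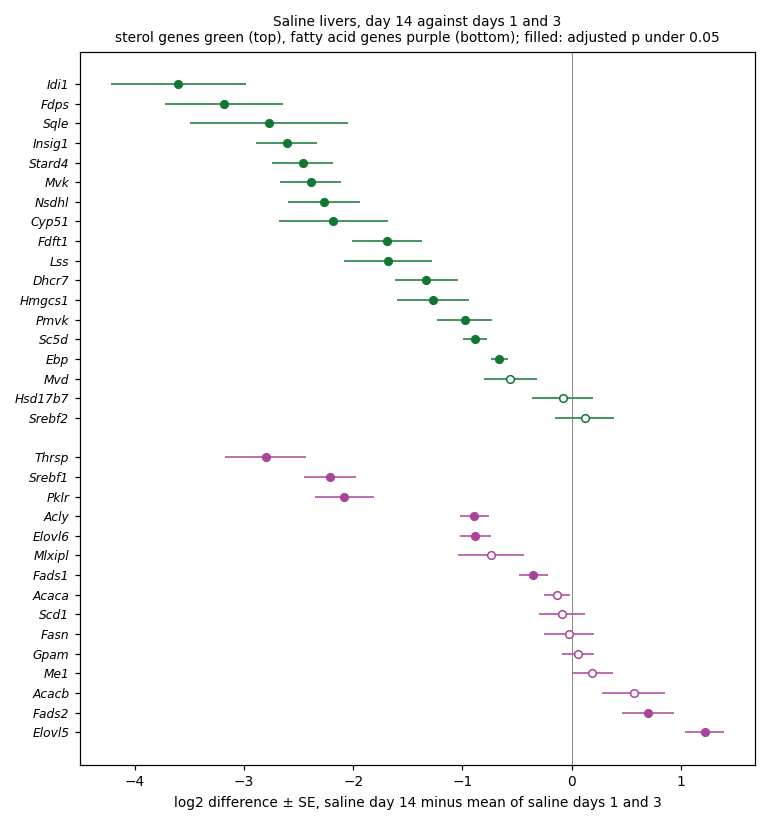
Log2 difference of the 5 saline livers of day 14 from the mean of the saline livers of days 1 and 3, with standard errors from limma. Sterol genes (green) run from -3.60 for Idi1 to 0.12 for Srebf2, and fatty acid genes (purple) from -2.80 for Thrsp to 1.22 for Elovl5; filled points were called at an adjusted p under 0.05.

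In the mevalonate and isoprenoid steps, Idi1 had a lowest signal of 3122, a median of 5725 and a highest of 13771 in the 6 saline livers of days 1 and 3, against the 397 to 657 of day 14, a difference of -3.60 ± 0.62 (SE, limma adjusted p = 0.000184). Fdps had a lowest signal of 2519.7, a median of 4782 and a highest of 9389 against 440.2 to 614, a difference of -3.18 ± 0.54. Mvk, the mevalonate kinase, had a lowest signal of 404, a median of 502 and a highest of 834. Its day 14 livers read 128, 107, 96.1, 167 and 45.2, while array medians were 75.2 to 89.9. The difference was -2.39 ± 0.28, or -1.68 when the array median was added before log2. All 3 were lower in every liver of day 14. Hmgcs1 had a lowest signal of 7342, a median of 14478 and a highest of 22493 against 4633 to 8341, with overlap and a difference of -1.27 ± 0.33. Pmvk, the phosphomevalonate kinase, had a lowest signal of 731, a median of 1006 and a highest of 1312, then 520.2, 539, 566, 518 and 463, a difference of -0.98 ± 0.25. Mvd was not called (-0.56 ± 0.24, adjusted p = 0.0889), and without diclofenac replicate 3 of day 14, which shares in the estimate of the spread, its adjusted p was 0.0446.

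In the squalene and lanosterol steps, Fdft1, the squalene synthase, had a lowest signal of 3017, a median of 4403 and a highest of 7437 in the early saline livers and 1397, 1632, 1331, 1244 and 1527 at day 14, a difference of -1.69 ± 0.32. Sqle had a lowest signal of 580.4, a median of 1206 and a highest of 2350.5 against 123 to 216, a difference of -2.77 ± 0.72 (SE, limma adjusted p = 0.00645). Lss had a lowest signal of 505, a median of 838 and a highest of 1619, against 259, 141, 267, 302 and 396 at day 14, a difference of -1.68 ± 0.40. No liver of day 14 reached the early livers in these genes. Cyp51 had a lowest signal of 1428, a median of 2322 and a highest of 4005, against 524, 603, 540.1, 467 and 476, a difference of -2.18 ± 0.50, and Nsdhl a lowest signal of 1912, a median of 3222 and a highest of 5019, against 791, 838, 571, 677 and 534, a difference of -2.27 ± 0.33. Hsd17b7 stood aside, at 1055 to 1745 early and 1182 to 1332 at day 14, a difference of -0.08 ± 0.28 that was not called.

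In the last steps, Ebp had a lowest signal of 12422, a median of 12886 and a highest of 13594 early and 7777, 7644, 7978, 8548 and 9076 at day 14, a difference of -0.66 ± 0.08. Sc5d, a sterol desaturase, had a lowest signal of 8603, a median of 11400.5 and a highest of 13889, against 6324, 6490.1, 5989, 5915 and 6453, a difference of -0.88 ± 0.11. Dhcr7 had a lowest signal of 1072, a median of 1744 and a highest of 3989, against 825, 646, 884, 668 and 730.1, a difference of -1.33 ± 0.29. Every liver of day 14 was below every early saline liver in the 3 genes, though the other 2 probe sets of Sc5d gave -0.16 and 0.44 and were not called.

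Among the regulators, Insig1 had a lowest signal of 6403, a median of 8265 and a highest of 11182 in the early saline livers and 1039.7, 1464, 1539, 1153 and 1653 at day 14, a difference of -2.61 ± 0.28 (SE, limma adjusted p = 1.24e-06). Stard4 had a lowest signal of 1975, a median of 2724 and a highest of 3606 and 509, 756, 427, 331 and 511, a difference of -2.46 ± 0.28. Neither gene overlapped between the times. Srebf2 was alone in the branch in lying above 0, with 183 to 335 early, 231 to 338 at day 14 and a difference of 0.12 ± 0.27 that was not called.

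The fatty acid branch separated into 3 sets. Srebf1 had a lowest signal of 2184, a median of 3496 and a highest of 4714 in early saline livers and 731, 635, 1003, 546 and 825 at day 14, a difference of -2.21 ± 0.24 (SE, limma adjusted p = 1.02e-06). Thrsp had a lowest signal of 4695, a median of 6376 and a highest of 7724 and then 1668, 669, 1044, 1027 and 479, a difference of -2.80 ± 0.37, and Pklr a lowest signal of 969, a median of 1352 and a highest of 1634 and then 429, 366, 269, 383 and 178, a difference of -2.08 ± 0.27. These 3 genes did not overlap between the times, and with the mean of all its probe sets Thrsp was at -1.80. Elovl6 (a lowest signal of 957, a median of 1398 and a highest of 1659.8, then 680.4, 854, 656, 798 and 679) and Acly (a lowest signal of 4673, a median of 5446 and a highest of 5865, then 2857, 2896, 3514, 2376 and 2788) differed by -0.88 ± 0.14 and -0.89 ± 0.13 without overlap, and Fads1 (a lowest signal of 8557, a median of 9490.2 and a highest of 10589, then 5863, 7105, 7836, 7032 and 10390.1) by -0.35 ± 0.13 with overlap. The direction of Acly rests on its probe set, since another of its 4 probe sets was called at 0.56 and the mean of all 4 gave 0.11.

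The second set was higher at day 14. Elovl5 had a lowest signal of 11991, a median of 15939 and a highest of 18650.1 in early saline livers and 33191 to 37767 at day 14, a difference of 1.22 ± 0.18 (SE, limma adjusted p = 3.1e-05). Fads2 had a lowest signal of 3552, a median of 4429 and a highest of 5737, against 6135 to 8724, a difference of 0.70 ± 0.24 (adjusted p = 0.0312). Both were above every early saline liver, though 1 of the 3 probe sets of Fads2 gave -0.04, and both were among the genes called lower with diclofenac at day 14 without replicate 3. For Elovl5 the diclofenac livers of day 14 other than replicate 3, at 21598 to 27038, still lay above the early saline range of 11991 to 18650.1, while for Fads2 they read 3375 to 5221, within or below its early range. The third set was not called: Fasn (-0.02 ± 0.23), Scd1 (-0.09 ± 0.21), Acaca (-0.13 ± 0.12), Gpam (0.06 ± 0.15), Me1 (0.19 ± 0.19), Acacb (0.57 ± 0.29) and Mlxipl (-0.74 ± 0.30), the last of which was called when diclofenac replicate 3 of day 14 was left out (adjusted p = 0.0075).

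Some of these calls over time depended on the setting. Fads1 lost its call in 15 of the 22 models that left out 1 array (adjusted p of 0.0506 to 0.147, the highest without saline replicate 1 of day 14) and with quantile normalization (0.0792), no filter (0.0609) or the mean of all probe sets (-0.10, adjusted p = 0.514). Fads2 lost it in 5 of 22 (0.053 to 0.0774, the highest without saline replicate 5 of day 14) and with median centring (0.59, adjusted p = 0.094) or the mean of all probe sets (0.60, adjusted p = 0.0536). With the mean of all probe sets Fdps (-1.68, adjusted p = 0.0786), Hmgcs1 (-0.70, adjusted p = 0.162) and Sc5d (-0.20, adjusted p = 0.345) were not called. The other sterol genes called kept their calls in these settings, other than Sqle with the replicate number as a block.

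Cell type markers also differed by day in saline livers. The 7 hepatocyte markers summed to 337436 to 389262 at days 1 and 3 and to 481194 to 626670 at day 14, and 6 of 7 were called higher. The 7 macrophage and Kupffer cell markers summed to 15735 to 25401 early and to 4337 to 11358 at day 14, with 6 of 7 called lower. The 6 endothelial markers summed to 8247 to 10118 early and to 5350 to 7651 at day 14, with 3 called lower, and the 3 pancreatic acinar markers to 2769 to 3597 and then 979 to 1462, with 1 of 2 tested called lower. T and NK cell markers summed to 257 to 447 and then 208 to 251, with 1 of 4 called lower. The 4 adipocyte markers summed to 118 to 192 and then 525 to 1202, with 1 of 2 tested called higher, and Cidec was at 42.8 to 68.1 early. The part of these markers in the lower sterol signals was not tested.

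Between the saline livers of days 3 and 1, all 18 sterol genes were below 0, with a median of -0.32, and 13 of 15 fatty acid genes above it, with a median of 0.20, beside -0.04 over all genes. Fads2 was highest, at 0.58 ± 0.17 (SE, limma adjusted p = 0.226), and Srebf1, at -0.70 ± 0.29, was the only fatty acid gene besides Pklr below 0. Srebf1 alone of the 33 passed the methods' t-test before Benjamini-Hochberg and none after it, while 278 of the 12884 genes tested passed before it. In limma an unadjusted p under 0.05 was found for 4 of the 33 and for 1337 of the 12884. None of the 33 was called by limma, and 0.217% of all genes tested were. With diclofenac replicate 3 of day 1, which enters the same fit, left out, Fads2 was called at 0.58 ± 0.10 (adjusted p = 0.048), beside 34 called genes in the whole table in place of 28.

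At days 1 and 3 the spread among saline livers was larger in the sterol branch. Over the 6 saline livers of days 1 and 3 the highest signal was a median of 2.54-fold above the lowest for sterol genes, up to 4.41-fold for Idi1, and 1.56-fold for fatty acid genes, up to 2.27-fold for Fasn. Within a day these medians were 1.95-fold and 1.24-fold for saline livers of day 1 and 1.65-fold and 1.17-fold for those of day 3. In the 5 saline livers of day 14 the medians were close, at 1.52-fold for sterol and 1.48-fold for fatty acid genes. The 4 diclofenac livers of day 14 other than replicate 3 had 1.51-fold and 1.43-fold, and with replicate 3 the values were 4.38-fold and 2.24-fold.

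Neighbouring pathways were read from 4 further lists, whose counts over time in saline livers stand beside 28.4% of all genes called, 16.0% lower and 12.4% higher. Other sterol genes (16 on the array) had no gene called at days 1, 3 or 14 with diclofenac, with medians of -0.02, 0.05 and 0.07. In saline livers of day 14 against days 1 and 3, 9 of 16 were called lower and 2 higher. Among them Msmo1, a methylsterol oxidase of the same route, differed by -2.47 ± 0.51 (SE, limma adjusted p = 0.00104). Aacs, which activates acetoacetate for lipid synthesis, differed by -2.35 ± 0.25, and Rdh11, a retinol dehydrogenase under SREBP control, by -1.62 ± 0.30. Insig2, the form of the anchor that is not a target of SREBP2, was higher by 1.76 ± 0.18 (adjusted p = 6.59e-07), opposite to Insig1.

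Of 26 other fatty acid and triglyceride genes tested, none was called with diclofenac at any day, with medians of -0.05, 0.12 and -0.10, and without replicate 3 of day 14 Elovl2, the elongase that follows Elovl5, fell by 0.65 ± 0.12 (SE, limma adjusted p = 0.0285). In saline livers of day 14 against the early days, 11 of 27 were called lower and 4 higher, among them Acss2, an acetyl-CoA synthetase (-1.55 ± 0.27), Mid1ip1, a partner of acetyl-CoA carboxylase (-1.54 ± 0.22), Lpin1, a phosphatidate phosphatase (-1.34 ± 0.33), and Pgd of the pentose phosphate route (-1.01 ± 0.23). LXR and its targets and partners (11 genes) had none called with diclofenac at any day, with medians of 0.06, -0.07 and -0.15, and in saline livers over time 2 called lower, Pltp (-0.87 ± 0.24) and Rxra (-0.60 ± 0.07), and 1 higher, Nr0b2 (0.88 ± 0.25).

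Genes of the fasting response (16) had medians of 0.22, -0.37 and -0.31 with diclofenac at days 1, 3 and 14 and none called. Without replicate 3 of day 14, Fgf21, a fasting hormone of the liver, fell by 1.46 ± 0.31 (SE, limma adjusted p = 0.0491) and G6pc, the glucose-6-phosphatase, by 0.91 ± 0.17 (adjusted p = 0.0266). In saline livers the list was higher at day 14 than early, with 12 of 16 called higher, none lower and a median of 0.92; Fgf21 differed by 2.99 ± 0.43, Cyp4a14, a fatty acid hydroxylase under PPARα, by 2.45 ± 0.63, Igfbp1, which insulin lowers, by 2.33 ± 0.49, and Acot1, an acyl-CoA thioesterase, by 2.19 ± 0.65. Between saline livers of days 3 and 1, Tat (1.24 ± 0.22) and Angptl4 (1.20 ± 0.21) were called higher. The paper reports that body weight fell over the longest treatment in both saline and diclofenac mice. For the shorter treatments it reports no such fall in saline mice. The part of the fasting genes' difference in the lower Srebf1, Thrsp, Pklr and sterol signals of day 14 was not tested. Nor was the part of the weight loss in these signals or in the fasting genes.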

How the data were processed

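Liver RNA of 22 mice in 6 groups was read on Affymetrix whole-genome mouse arrays, 1 array for each liver. The deposited values are linear signal intensity for 45101 probe sets, which the authors made with MAS5. The trimmed mean of each array (2% off either end) was 500.0, and array medians ran from 75.2 to 89.9, so that the median normalization named in the methods is not seen in the values. Detection calls and counts are not part of these values, so depth is unknown and the number of arrays limits the precision. The stated numbers of mice in a group differ between the labels and the methods, and the arrays used here are 3 or 5 in a group.

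Probe sets with a single symbol (34958, against 932 with several and 9211 with none) gave 18194 genes, each by its probe set of highest mean log2 intensity. Genes above the median of an array in at least 3 arrays of a model were tested on log2 intensity with limma 3.58.1 (R 4.3.3; lmFit and eBayes with trend), with Benjamini-Hochberg adjustment and a threshold of 0.05. Days 1 and 3 shared 1 model, day 14 had its own, and comparisons across these used all 22 arrays. All 33 genes passed the filter in each model. Tables used pandas 2.3.3 under Python 3.11.15 and figures matplotlib 3.10.9, and limma was checked on simulated data. The methods' t-test (Welch) was run as an alternative, beside scaling, filter, probe set, weighting and model choices and each array left out.

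The genes and lists, markers included, were chosen with earlier results of these data known. Values in every liver (lowest, median and highest for the 6 early saline livers) are given for genes called in a comparison, for Sqle, Scd1 and Pklr, and for the 4 sterol and 4 fatty acid genes with the largest difference at each day. Of other lists at most 4 called genes are named. Equal replicate numbers correlated at -0.106 to 0.113, with 1 of 11 pairs over 0.1, and were not taken to pair mice. Promoter sequences are from RefSeq, build GRCm38.p6.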

Additional observations from a re-analysis of the deposited data

Results flagged for a closer look

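Of 66 groups of 5 livers tested for a value far from the rest (33 genes, saline and diclofenac at day 14), 16 had one. Values from 1 liver are not independent, so no rate by chance is set beside this count. All 16 were in the diclofenac group, and 15 were replicate 3, a liver already known to stand apart. Its sterol genes were high, with Sqle at 7525.6 against 146.9 to 263.9 in the other 4 livers, Idi1 at 9006.7 against 367.1 to 548.0, Fdps at 8296.5 against 411.4 to 630.0 and Cyp51 at 5775.0 against 343.5 to 672.7. The same held for Insig1 at 6139.9 (1377.2 to 2076.8), Fdft1 at 6512.6 (1513.0 to 1757.5), Lss at 1293.2 (218.9 to 271.9), Pmvk at 1207.3 (497.1 to 599.0), Srebf2 at 805.9 (244.8 to 337.7) and Stard4 at 1652.2 (489.5 to 614.7).

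Among its fatty acid genes Acly was high at 4531.9 (2558.7 to 2970.9 in the others), while Acacb at 251.4 (555.0 to 729.1), Elovl5 at 10826.7 (21598.2 to 27038.1), Me1 at 1739.9 (3261.8 to 4097.5) and Mlxipl at 1093.0 (3012.7 to 4208.6) were low. The remaining value was Scd1 in replicate 1 of the same group, at 63695.5 against 28471.9 to 34936.4.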

How the results depend on the processing

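Settings are given by the number of the 33 genes called unless a median is named. At day 14 (0 called) the count was 3 with all 22 arrays in one model, 3 with array weights, 3 by the methods' t-test and 0 to 3 when 1 array was left out, the 3 being without diclofenac replicate 3. Without that liver, in alternatives chosen after seeing the data, it was 3 with quantile normalization, 1 with median centring, 3 with the mean of all probe sets and 3 with all other arrays in one model. The methods' t-test gave 2 at day 3 and 1 for saline day 3 against day 1, where array weights also gave 1. Leaving out 1 array gave 0 to 1 at day 1, 0 to 3 for the mean of days 1 and 3 and 0 to 1 for saline day 3 against day 1, the highest without diclofenac replicate 3 of day 1. The median of the fatty acid genes at day 3 (0.05) was -0.03 with quantile normalization, -0.10 with the mean of all probe sets and -0.03 to 0.08 when 1 array was left out. At day 14 (-0.18) it was -0.36 to -0.09 when 1 array was left out. For saline day 14 against days 1 and 3 (-0.13) it was -0.30 with quantile normalization, -0.23 with median centring, which moved the median of all genes from -0.06 to -0.16, and -0.02 with the mean of all probe sets. Idi1 at day 14 turned from 0.68 to -0.12 with array weights and -0.18 without replicate 3, with a highest of 0.98 when another array, diclofenac replicate 4, was left out (-0.19, -0.14, -0.16 and -0.18 in the alternatives chosen after seeing the data, in the order above), and Acly over time in saline turned from -0.89 to 0.11 with the mean of all probe sets. The causes were not tested.

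With the replicate number as a block, 0 of the 33 genes were called for diclofenac at any day, for the differences between days and for saline day 3 against day 1, and 22 in place of 23 for saline day 14 against the early days, where Fads2 (adjusted p = 0.153) and Sqle (0.0504) lost their calls and another gene gained one. Over the whole table the replicate block called 3 genes in place of 26 at day 3, 1 in place of 0 at day 14, 56 in place of 87 for the mean of days 1 and 3, 4 in place of 28 for saline day 3 against day 1, 1 in place of 3 for day 14 less the early effect and 2955 in place of 3787 for saline day 14. Whole-table counts were also wide when 1 array was left out, at 0 to 5 for day 1, 0 to 178 for day 3, 0 to 123 for day 14, 16 to 326 for the mean of days 1 and 3, 0 to 120 for saline day 3 against day 1, 0 to 17 for day 14 less the early effect and 3265 to 4684 for saline day 14, and under the other settings they were 1 to 156 for day 3, 0 to 133 for day 14, 32 to 190 for the mean, 2 to 224 for saline day 3, 0 to 14 for day 14 less the early effect and 2955 to 5197 for saline day 14.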
